A study of Homo sapiens with 2 samples.

Results

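The genes described here are the HOXB and HOXC cluster genes HOXB2, HOXB3, HOXB4, HOXB6, HOXB7, HOXC4, HOXC6, HOXC9, HOXC10 and HOXC13, in RNA precipitated from T47D cells by an IMP1 antibody or by normal IgG. They were taken from the deposited table by gene name, from a list drawn up with earlier results of these data known. Of the 10 names, 9 are listed in the table and HOXB4 was not analysed here. HOXC4 stands on 2 rows with different identifiers, so the 9 genes fill 10 of the 18781 rows, 4 from HOXB and 6 from HOXC.

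T47D is a human luminal breast cancer cell line, and the cells were wild type in both conditions. IMP1 is a cytoplasmic RNA-binding protein that takes part in the localization, stability and translation of its target RNAs. In RNA immunoprecipitation (RIP), a cell lysate is incubated with antibody-coated protein A beads, the beads are washed, and the RNA that stays on them is sequenced. The data hold 1 library from the precipitate of the IMP1 antibody, called the IMP1 RIP below, and 1 from that of normal IgG, called the IgG control, without an input library, so that no difference below has a replicate check and no test between the conditions could be made. The question behind the pair of libraries was which RNAs associate with IMP1 in these cells. The labels and the methods text differ on how long the lysate stayed with the beads.

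HOX genes encode homeodomain transcription factors that give cells their position along the body axis. Human cells carry 39 of them in 4 clusters, HOXA to HOXD, and genes with the same number in different clusters are paralogs. Their order on the chromosome follows the order in which they act from head to tail, low numbers being anterior and high numbers posterior. Neighbouring genes are short, lie close together, and overlap antisense lncRNAs and each other's longer transcripts, so that reads from a cluster are hard to assign to 1 gene. Adult epithelial cells keep part of this pattern, and several HOXB and HOXC genes have been studied in breast cancer.

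The unit of every level is FPKM, fragments scaled by transcript length and by library size, so that levels of different genes can be compared within a library. In the IMP1 RIP 17579 genes were above 0, and in the IgG control 11511 were. The FPKM sum over all genes was 353885 in the IMP1 RIP and 1298363 in the IgG control. Read counts were not used here and the depth is unknown. Among 772 genes alone in a locus of 1 to 3 kb, the product of FPKM and locus length (kb), over values above 0.001 FPKM, had a lower 5% bound of 0.0715 with the IMP1 antibody and of 0.326 with IgG, 4.56 times the first. The 12 luminal breast markers are all listed, and 11 of them were at 1 FPKM or more in each library. Their summed level was 1266 FPKM with the IMP1 antibody and 579.4 FPKM with IgG, 7 were at least 2-fold higher with the IMP1 antibody (39.9% of all genes) and 0 at least 2-fold lower (29.9%), and their median log2 ratio was 1.19. Of the 10 mesenchymal markers, 9 reached 1 FPKM with IgG and 1 with the IMP1 antibody, where 5 were listed at 0, namely COL1A2, DCN, LUM, PDGFRB and SPARC. The summed level of these mesenchymal markers was 212.5 FPKM with IgG and 2.64 FPKM with the IMP1 antibody. Of 7 blood cell markers 3 are listed, with a summed level of 309.7 FPKM with IgG and 6.90 FPKM with the IMP1 antibody, nearly all of it CD74, and no marker of 4 for endothelial cells is listed. Both libraries are precipitates from the T47D line, so these levels give no count of cells of a type. The source of the mesenchymal and blood marker RNAs and their part in the HOX values were not tested.

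HOXC10 and HOXB2 were the most abundant members in both libraries, and they stood in the opposite order. HOXC10, a posterior HOX gene known from the patterning of lumbar motor neurons and hind limbs, had 18.5 FPKM in the IMP1 RIP and 24.1 FPKM in the IgG control. HOXB2, an anterior gene that takes part in patterning the hindbrain, had 4.61 FPKM in the IMP1 RIP and 31.8 FPKM in the IgG control. HOXC10 was thus 4.02 times HOXB2 with the IMP1 antibody, while HOXB2 was 1.32 times HOXC10 with IgG. Between them the log2 ratio of IMP1 over IgG, taken on FPKM + 0.1, differed by 2.38. No rescaling of a whole library moves the order of genes within it. Summing the rows of a stretch, meaning rows that share 1 position in the table, did remove the reversal. The HOXC10 stretch was then above the HOXB2 stretch with the IMP1 antibody (27.2 against 8.35 FPKM) and with IgG (55.7 against 36.1 FPKM). Leaving out the lncRNA HOXC-AS2, a choice made after seeing the data, brought the reversal back, with the other antisense lncRNAs still in the sums. The HOXC10 stretch then had 26.7 FPKM with the IMP1 antibody and 31.9 FPKM with IgG, the latter not far below the 36.1 FPKM of the HOXB2 stretch.

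For each member, 0.1 was added to both FPKM values before the log2 ratio of IMP1 RIP to IgG control was taken. Differences of low genes measured in both libraries thus come out smaller than they are. Of the 10 rows, 4 were at least 2-fold higher with the IMP1 antibody, against 39.9% of all genes, 3 were at least 2-fold lower, against 29.9% of all genes, and 3 lay within 2-fold. These shares are close to those of the whole table. The 4 higher rows were HOXB6, HOXB7, HOXC9 and the other HOXC4 row, the 3 lower rows HOXB2, HOXB3 and HOXC4, and the 3 others HOXC6, HOXC10 and HOXC13. All 4 higher rows were at or next to 0 with IgG, so the size of their ratios depends on the value added. With 1 FPKM added in place of 0.1, only HOXC9 stayed at least 2-fold higher, and HOXB6 and HOXB7 were at 0.67 and 0.83. The median log2 ratio was -0.38 over the members and 0.40 over all genes. Among the 6909 genes at 1 FPKM or above in each library the median was -0.78 and 44.0% were at least 2-fold lower, and the 5 members among them had a median of -0.50 with 2 at least 2-fold lower.

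**Figure D1:**
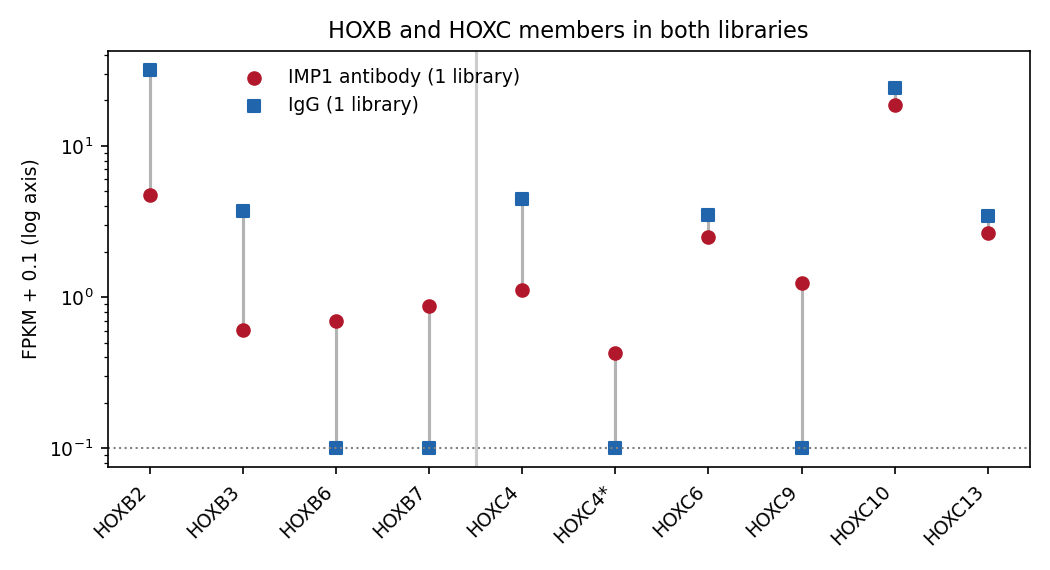
Level of each member in the IMP1 RIP (circles) and in the IgG control (squares), as FPKM + 0.1 on a log axis, with HOXB genes left and HOXC genes right of the grey line and a dotted line at 0 FPKM. HOXC4* is the other row named HOXC4; HOXB2 and HOXC10 are the highest in both libraries, and HOXB6, HOXB7, HOXC4* and HOXC9 lie at or next to the dotted line with IgG.

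In the HOXB cluster on chromosome 17, HOXB2 and HOXB3 were lower with the IMP1 antibody on their own rows, and HOXB6 and HOXB7 were listed at 0 with IgG. HOXB2 (ENSG00000173917) was 6.91-fold lower in the IMP1 RIP, with a log2 ratio of -2.76. HOXB3 (ENSG00000120093), which acts beside HOXB2 in hindbrain patterning and is also expressed in blood progenitors, had 0.506 FPKM with the IMP1 antibody and 3.59 FPKM with IgG. Its fold was 7.10 and its log2 ratio -2.61, close to that of HOXB2. Among the 1698 genes whose mean log level over both libraries lay within 1.5-fold of that of HOXB2, 50.1% were at least 2-fold lower and the median log2 ratio was -1.01. For the 1959 genes near HOXB3 these values were 42.1% and -0.55. Both HOXB genes were therefore lower than the median gene of their own level. HOXC4 was so too, at -1.99 beside -0.74, while HOXC6, HOXC10 and HOXC13 lay above that median. It was -0.88 near HOXC10, -0.91 near HOXC13 and -0.90 near HOXC6. Near HOXB6, HOXB7 and HOXC9, 79.1%, 77.9% and 75.9% of genes were at least 2-fold higher. At a given mean level, a row at 0 with IgG has the highest ratio possible. Nothing is therefore read from the place of these 3 rows, or of the other HOXC4 row, beside such a median.

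HOXB6 (ENSG00000108511), a gene known from erythroid progenitors, had 0.590 FPKM in the IMP1 RIP and was listed at 0 in the IgG control. HOXB7 (ENSG00000260027), which has been linked to invasive growth of breast cancer cells, had 0.772 FPKM in the IMP1 RIP and was listed at 0 with IgG. Neither gene has a measured fold change, since the control is at 0. The non-member HOXB8 and HOXB9 had 0.0916 and 0.292 FPKM in the IMP1 RIP and were listed at 0 with IgG too. Summed over the 4 HOXB members, the level was 6.48 FPKM with the IMP1 antibody and 35.4 FPKM with IgG, a 5.47-fold difference, and HOXB2 made up 71.2% of the first sum and 89.9% of the second.

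In the HOXC cluster on chromosome 12, the 3 members within 2-fold had nearly the same ratio. HOXC10 (ENSG00000180818) had a log2 ratio of -0.38. HOXC13 (ENSG00000123364), which controls keratin genes in the hair follicle, had 2.57 FPKM in the IMP1 RIP, 3.36 FPKM in the IgG control and a log2 ratio of -0.37. HOXC6 (ENSG00000197757), a homeobox gene often studied in prostate and breast cancer, had 2.38 and 3.41 FPKM and a log2 ratio of -0.50. All 3 values lay above the median of -0.78 over genes at 1 FPKM or above in each library and below the median of 0.40 over all genes. Rescaling of the IMP1 values then gave the median gene of those at 1 FPKM or above in each library the same level in both. The ratios became 0.41 for HOXC10, 0.40 for HOXC13 and 0.27 for HOXC6, so that their sign depends on the scale. With equal FPKM sums all 3 were at least 2-fold higher, at 1.49, 1.46 and 1.33. With the rows of their stretch summed, HOXC10 and HOXC6 were at -1.03, and at -0.26 without HOXC-AS2. Their place within 2-fold thus depends on these choices too.

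HOXC4 (ENSG00000198353), which is expressed in lymphoid cells as well as in epithelia, was the only HOXC member at least 2-fold lower, with 1.02 FPKM in the IMP1 RIP, 4.33 FPKM in the IgG control and a log2 ratio of -1.99. The other row named HOXC4 (ENSG00000273266) went the opposite way, with 0.329 FPKM in the IMP1 RIP and 1.08e-05 FPKM in the IgG control. In all, 74 gene names stand on more than 1 row of the table, and the name table used here holds no entry for this identifier. HOXC9 (ENSG00000180806), a posterior gene that acts in spinal cord patterning, had 1.14 FPKM with the IMP1 antibody and was listed at 0 with IgG. Summed over the 6 HOXC rows, the level was 25.9 FPKM in the IMP1 RIP and 35.2 FPKM in the IgG control, a 1.36-fold difference. HOXC10 made up 71.3% of the first sum and 68.5% of the second.

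Listing at 0 with IgG was common at the level of these genes. Over all genes 38.7% were above 0 in the IMP1 RIP and listed at 0 with IgG, as were 3 of the 10 member rows. Of the 2751 genes with 0.5 to 1.2 FPKM in the IMP1 RIP, 49.1% were listed at 0 with IgG, as were 3 of the 5 member rows in this range. HOXB3 and HOXC4 were the other 2, and both were above 3 FPKM with IgG.

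**Figure D2:**
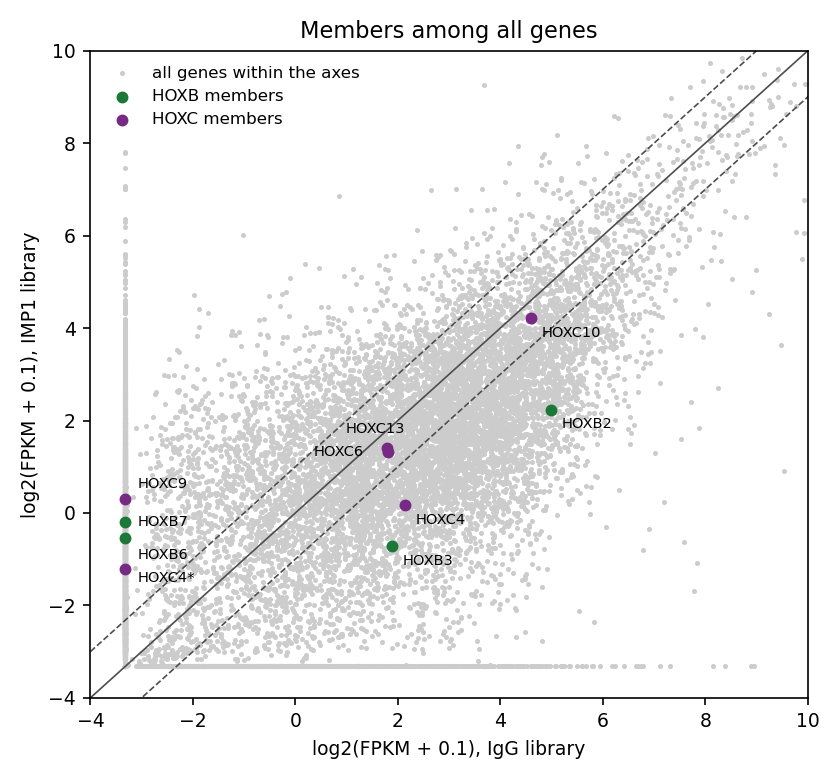
Each gene by log2(FPKM + 0.1) in the IgG control (x axis) and in the IMP1 RIP (y axis), with all genes in grey, HOXB members in green and HOXC members in purple. The solid line marks equal levels, the dashed lines mark 2-fold, and 46 genes lie beyond the axes, which end at 10. HOXC6, HOXC10 and HOXC13 lie between the dashed lines, and HOXB2, HOXB3 and HOXC4 lie below them within the grey cloud.

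All 10 member rows share their position in the table with at least 1 other row. The table gives 1 position to a whole stretch of overlapping genes, in build hg19, and 47.5% of all genes share it with another row. HOXB2, HOXB3 and HOXB6 lie with HOXB-AS1 and a row named MIR10A at chr17:46618256-46683776. HOXB7 lies with HOXB8 and HOXB9 at chr17:46684594-46712294. HOXC13 lies with HOXC13-AS at chr12:54329112-54340328. The longest stretch, chr12:54375293-54449814, holds 11 rows, of which both HOXC4 rows, HOXC6, HOXC9 and HOXC10 are 5.

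At the HOXB7 stretch HOXB7, HOXB8 and HOXB9 were all above 0 with the IMP1 antibody and listed at 0 with IgG, while the rows of the other 3 stretches differed in direction or size. At the HOXB2 stretch, HOXB-AS1, a lncRNA that overlaps HOXB2 and HOXB3 in the RefSeq annotation of GRCh38.p14, had 2.59 FPKM with the IMP1 antibody and 0.673 FPKM with IgG, which is 1.80 on the log2 ratio against -2.76 for HOXB2. At the HOXC10 stretch, HOXC-AS3, which overlaps HOXC10, had 2.67 FPKM with the IMP1 antibody and was listed at 0 with IgG. HOXC-AS2 in the same stretch had 0.535 FPKM with the IMP1 antibody and 23.8 FPKM with IgG, which is -5.23 on the log2 ratio. HOXC13-AS, which overlaps HOXC13, had 1.75 FPKM with the IMP1 antibody and was listed at 0 with IgG. Whether the reads were counted by strand is not given in the sources used here, so that reads of a HOX gene and of its antisense lncRNA cannot be told apart.

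When the rows of a stretch were added, 4 member rows took a value of the opposite sign, HOXB6, HOXC9, the other HOXC4 row and HOXC13, of which the first 3 had been past 2-fold. Such a sum adds values scaled by different lengths, so it still depends on how reads were assigned to genes. The HOXB2 stretch summed to 8.35 FPKM in the IMP1 RIP and 36.1 FPKM in the IgG control, a log2 ratio of -2.10. The HOXC10 stretch summed to 27.2 and 55.7 FPKM, a log2 ratio of -1.03, in which HOXC-AS2 and HOXC10 hold most of the IgG sum. Without HOXC-AS2, its 10 other rows summed to 26.7 FPKM in the IMP1 RIP and 31.9 FPKM in the IgG control, and the log2 ratio was -0.26, within 2-fold. The HOXB7 stretch summed to 1.16 FPKM with the IMP1 antibody and to 0 with IgG, and the HOXC13 stretch to 4.32 and 3.36 FPKM, a log2 ratio of 0.35.

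HOXC4, HOXC5 and HOXC6 begin at the same base in the RefSeq annotation. HOXC5 had 2.56e-51 FPKM in the IMP1 RIP, a value far below that of any read, and was listed at 0 with IgG, while HOXC4 and HOXC6 were above 1 FPKM in both libraries. In the IMP1 RIP 388 genes lay above 0 and under 0.001 FPKM, and 265 did in the IgG control. The sequence around the start is shown because all 3 genes share that start. It comes from RefSeq, build GRCh38.p14, chr12:54016638-54016937, plus strand, with 250 bases before the start and 50 from it on, and the table holds such a window for 1 of the 10 members, HOXC4. The windows listed for HOXC4 and HOXC5 are the same. The capitals mark CCAAT read on the opposite strand.
HOXC4 and HOXC5: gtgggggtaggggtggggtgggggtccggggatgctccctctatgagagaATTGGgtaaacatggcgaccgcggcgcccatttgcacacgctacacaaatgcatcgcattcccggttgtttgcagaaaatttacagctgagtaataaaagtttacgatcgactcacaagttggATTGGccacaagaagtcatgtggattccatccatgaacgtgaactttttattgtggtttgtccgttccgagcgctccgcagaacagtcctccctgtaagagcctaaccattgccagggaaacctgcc
CCAAT boxes are promoter elements bound by the factor NF-Y. CCAAT stands in this window 2 times, beginning 200 and 77 bases before the start, and on either strand in 34.6% of all 35116 promoter windows of this length. TGATTNAT, the site of HOX and PBX dimers, is in 2.82% of all windows on either strand and not in this one, and TATAAA is in 11.5% and not in this one. The window holds 15 CG dinucleotides, where the median window holds 14. These matches describe the letters of the window and were not tested for binding.

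Of the 39 HOX genes 25 are listed, on 26 rows, and 14 were not analysed here. Among the 16 listed genes that are not members, 5 reached 1 FPKM in a library. HOXC11 did so in both, and the other 4 through the IgG control alone, so nothing is read from the direction of those 4. HOXC11 had 1.22 FPKM with the IMP1 antibody and 3.66 FPKM with IgG, and HOXA5, which is active in mammary epithelium and lung, had 0.140 and 3.29 FPKM. HOXA11, HOXD8 and HOXD13 had 1.31, 1.35 and 1.79 FPKM with IgG and were listed at 0 with the IMP1 antibody. HOXA3 and HOXD3, named after their values were seen, had 0.427 and 0.576 FPKM with the IMP1 antibody and were listed at 0 with IgG. Of the 16 genes, 3 were at least 2-fold higher, against 39.9% of all genes, and 8 at least 2-fold lower, against 29.9%, with a median log2 ratio of -0.51 beside 0.40 over all genes. The summed level over each cluster was 0.751 and 5.19 FPKM for HOXA, 6.86 and 35.4 FPKM for HOXB, 27.2 and 38.9 FPKM for HOXC and 0.576 and 3.38 FPKM for HOXD, in the IMP1 RIP and the IgG control. HOXC was thus the highest cluster in both libraries, and HOXA and HOXD were the lowest.

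**Figure D3:**
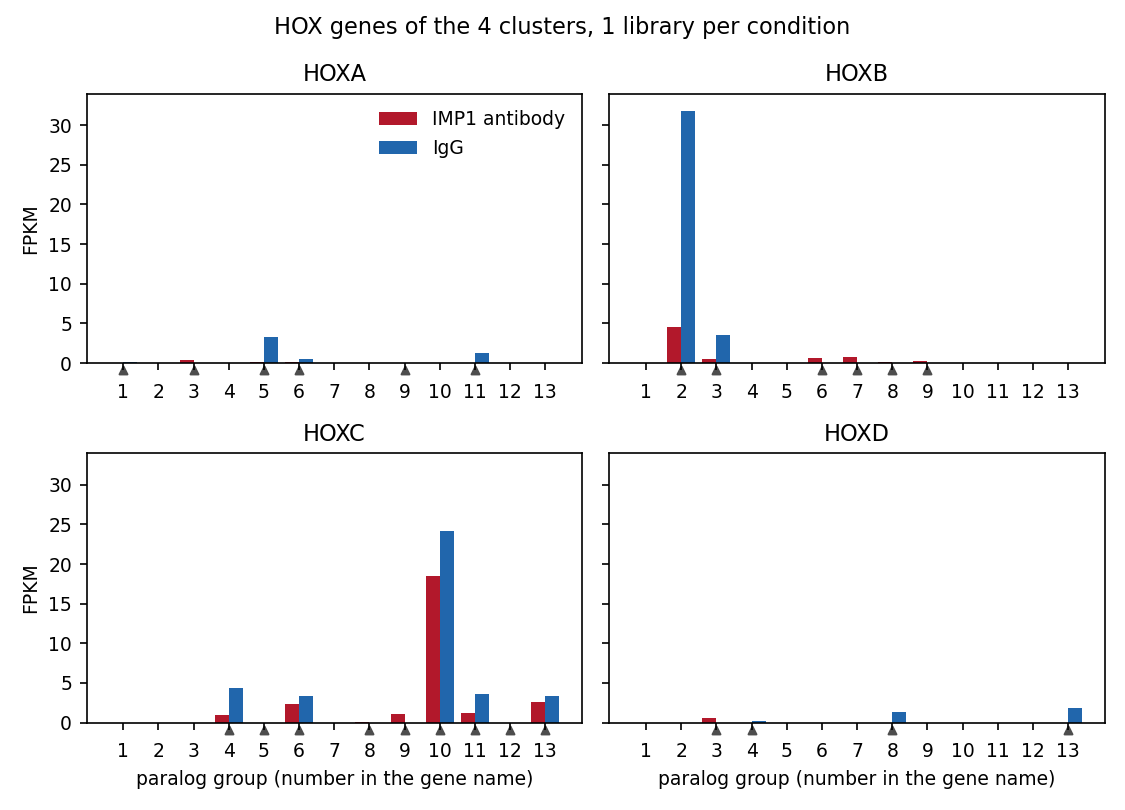
FPKM of the listed HOX genes in the IMP1 RIP (red bars) and in the IgG control (blue bars), 1 panel per cluster, ordered by the number in the gene name. Triangles mark the genes that are listed, without the other HOXC4 row. HOXB2 and HOXC10 stand above all other HOX genes in both libraries, and HOXC has 6 genes at 1 FPKM or more in the IMP1 RIP.

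PBX, MEIS and PKNOX proteins bind DNA together with HOX proteins. Of the 9 cofactors, 8 are listed, 4 at least 2-fold higher with the IMP1 antibody (39.9% of all genes) and 1 at least 2-fold lower (29.9%), with a median log2 ratio of 1.04. PBX2 was the only one at 10 FPKM or more in a library, with 7.31 FPKM with the IMP1 antibody and 10.7 FPKM with IgG. The 9 listed lncRNAs of the HOX clusters held 5 at least 2-fold higher and 2 at least 2-fold lower, beside the same shares of all genes, with a median of 1.48. Of these 9, 5 were listed at 0 with IgG, and 38.7% of all genes were so while above 0 with the IMP1 antibody. HOTAIR, a HOXC lncRNA known for its link to the Polycomb complex, had 2.60 FPKM with the IMP1 antibody and 3.26 FPKM with IgG, or -0.32 on the log2 ratio, beside that of HOXC13.

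Trithorax and Polycomb proteins keep HOX genes active or silent. All 23 listed regulators of this kind were above 0 with the IMP1 antibody, 7 were at least 2-fold higher, 10 at least 2-fold lower, and the median was -0.33. Over all genes 39.9% were higher and 29.9% lower, and among genes at 1 FPKM or above in each library 11.5% were higher and 44.0% lower. Of the 23, 6 were listed at 0 with IgG, among them EZH2 and DOT1L, chosen here after their values were seen, with 1.87 and 1.83 FPKM in the IMP1 RIP. The 5 with at least 10 FPKM in a library reached that level through the IgG control alone, so nothing is read from their direction, and all 5 were at least 2-fold lower with the IMP1 antibody. PHC3 had 9.36 and 113.7 FPKM, BMI1 4.67 and 47.2 FPKM, KMT2A 4.33 and 30.3 FPKM, SUZ12 3.004 and 20.6 FPKM and RNF2 3.96 and 12.2 FPKM, in the IMP1 RIP and the IgG control. KMT2A is a methyltransferase that maintains HOX expression.

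Of the 8 genes chosen next to the clusters, 6 are listed, 5 of them within 2-fold, 1 at least 2-fold higher (39.9% of all genes) and 0 at least 2-fold lower (29.9%). Near HOXB, SKAP1 had 1.46 FPKM with the IMP1 antibody and 2.40 FPKM with IgG, CALCOCO2 had 13.4 and 18.1 FPKM, and ATP5G1, a subunit of the mitochondrial ATP synthase, had 47.4 and 6.96 FPKM. Near HOXC, SMUG1 had 6.40 and 11.3 FPKM, CBX5 had 15.0 and 15.3 FPKM, and HNRNPA1 had 117.7 and 97.7 FPKM.

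The genes with the most similar pair of levels were AREG, LINC00998 and RNF40 for HOXB2 and DNAJC19, RBMX and SNRPD1 for HOXC10. Likeness was the distance on log2(FPKM + 0.1) over both libraries. AREG, an EGF receptor ligand, had 4.55 and 32.1 FPKM at a distance of 0.023 from HOXB2. DNAJC19, a mitochondrial import protein, had 18.9 and 24.0 FPKM at a distance of 0.029 from HOXC10. With 2 libraries many genes are as close, 46 within a distance of 0.25 of HOXB2 and 43 within that distance of HOXC10.

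The direction of HOXB2, HOXB3 and HOXC4 was the same under every setting tried, while the size of their difference moved with the scale. Only the rescalings and the summed rows could have changed the direction, since pseudocounts, filters and thresholds leave a sign as it is. With summed rows HOXB2 and HOXB3 hold the same stretch value, and HOXC4 holds that of the HOXC10 stretch. HOXB2 ranged from -2.79 with a pseudocount of 0.01 to -0.91 when both libraries were given the same FPKM sum, HOXB3 from -2.80 to -0.92 and HOXC4 from -2.08 to -0.21 under the same settings. With equal sums none of the 3 was at least 2-fold lower, and HOXC4 was at -0.26 with its stretch summed without HOXC-AS2.

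**Figure D4:**
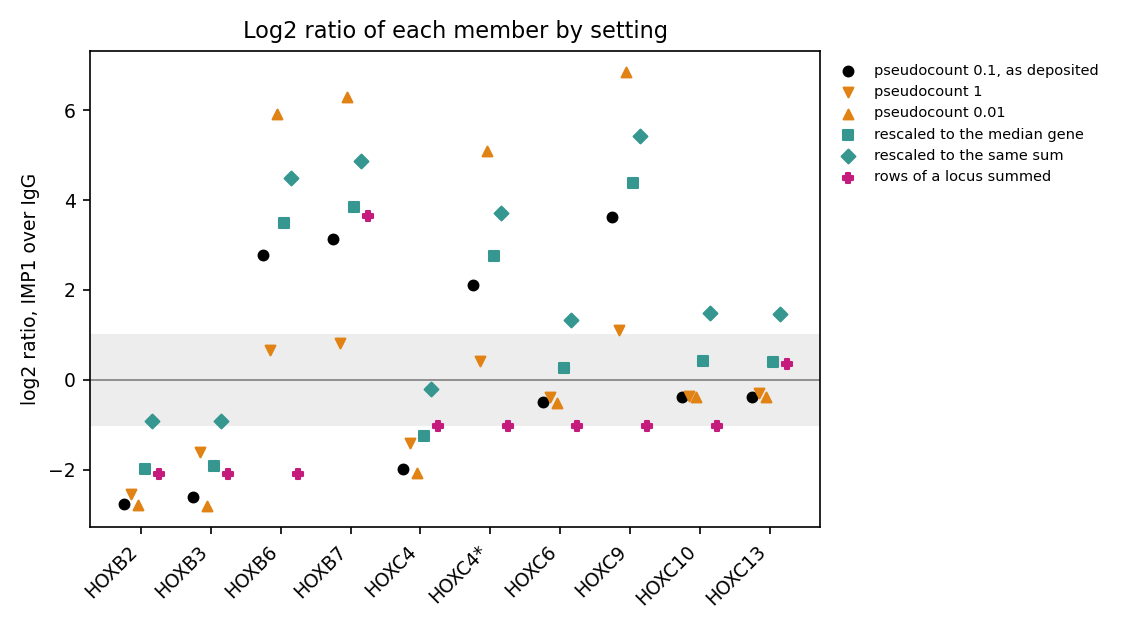
Log2 ratio of IMP1 over IgG for each member under 6 settings, with the grey band marking values within 2-fold and HOXC4* the other row named HOXC4. HOXB2, HOXB3 and HOXC4 stay below 0 in all 6. HOXB7, which is at 0 with IgG like its whole stretch, can only lie above 0, and is within 2-fold with a pseudocount of 1. When the rows of a stretch are summed, HOXB6, HOXC9 and HOXC4* fall below 0 and HOXC13 moves above it.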

How the data were processed

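The table was made by the authors from 1 library per condition, and its values are deposited in FPKM per gene. Build hg19 is named in the submitters' processing notes; the aligner, the counting software and the annotation are not given in the sources used here. A value of exactly 1e-05 stands for 0 and was set to 0. Positions count their start from 0, so 1 was added. The table's fold changes, p-values and q-values, and 3 lists drawn from them, hold the authors' own comparison and were not used. The log2 ratio of (FPKM + 0.1) was computed for 18781 genes, with a threshold of 2-fold, and no test or p-value was made. The steps were tested on made-up data for these 18781 genes, with control levels above 1 FPKM, no zeros and changes larger than the threshold. There 100% of 200 altered genes were recovered, which says nothing about calls on rows at or near 0. The members and gene lists were chosen with earlier results of these data known. Named genes were every listed member, other HOX genes of at least 1 FPKM, cofactors, lncRNAs and regulators of at least 10 FPKM, listed neighbours and the 3 nearest genes. HOTAIR and the antisense lncRNAs at the members' positions, HOXB8, HOXB9 and HOXC5 were added after their values were seen. Alternatives were other pseudocounts, filters, scales and thresholds and summed rows. Python 3.11.15, numpy 2.4.6, pandas 2.3.3 and matplotlib 3.10.9 were used.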

Additional observations from a re-analysis of the deposited data

How the results depend on the processing

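No replicate could be left out with 1 library per condition. No paired analysis was possible because each condition is 1 library and no model was fitted. The count of member rows past 2-fold in the higher direction, 4, was 1 after adding 1 FPKM (17.4% of all genes). It was 7 with equal FPKM sums and 1 with the rows of a stretch summed (32.2%). Where both libraries had to be above 0, 7 member rows were left and 1 was higher (17.5%). That was the other HOXC4 row, which passed with only 1.08e-05 FPKM with IgG. The 3 rows lower became 0 with equal FPKM sums, where 12.95% of all genes were lower and 63.7% higher. They became 8 with summed rows, where 33.3% of all genes were lower, and these 8 rows hold only 2 stretch values. At 4-fold they were 2, beside 17.3% of all genes, and 4 rows were higher, beside 26.1%. Rescaling was a log2 shift made before the pseudocount was added. It was 0.79 to the median gene of those at 1 FPKM or above in each library and 1.88 to equal sums. The members' median of -0.38 turned to 0.40 with the first and to 1.47 with the second, beside 0.96 and 1.87 over all genes. It was -0.33 with a pseudocount of 1 and -0.38 with 0.01, beside 0.09 and 0.62 over all genes. With summed rows it was -1.03, beside 0.01. Among genes of at least 0.5 FPKM in a library it was -0.38, beside -0.21. Among genes above 0 in both it was -0.50, above the median of -0.72 over all such genes. Summed rows turned HOXB6 to -2.10, HOXC9 and the other HOXC4 row to -1.03, and HOXC13 from -0.37 to 0.35, since each then takes the value of its stretch. With HOXC-AS2 left out of the sums, 1 member row was higher (32.2% of all genes) and 3 were lower (33.3%). The lower rows were HOXB2, HOXB3 and HOXB6, which all hold the value of their stretch, -2.10. The members' median was -0.26, and HOXC9 and the other HOXC4 row were at -0.26. Leaving out the other HOXC4 row gave 3 higher and 3 lower, and setting values under 0.001 FPKM to 0 gave 4 and 3. These last 3 settings were chosen after seeing the data.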
